A study of Mus musculus with 147 samples.

Results

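Male germ cells of the fetal mouse gonad were compared between embryonic days E13.5 and E12.5, the day on which primordial germ cells (PGCs) of the male begin to leave the mitotic cycle and the day before it. The members are the cells whose deposited names give wild type, the BVSC gate and one of these days, with more than 2000 genes and 10000 to 1000000 unique molecular identifiers (UMIs, each counting 1 captured transcript) per cell. They number 325 of the 13032 cells of the series, 138 at E12.5 and 187 at E13.5. Both groups came from C57BL/6 females mated with males homozygous for the transgenes Blimp1-mVenus and Stella-ECFP (BVSC), so every embryo carried both reporters, which follow Prdm1 and Dppa3, and the germ cells were sorted on them. Gonads were taken whole at E12.5 and cut into a proximal, a central and a distal part at E13.5, named by their position to the mesonephros. Each day has 2 biological replicates, and UMIs were summed over the cells of a replicate into a pool. By the study's supplement each replicate drew on several embryos or gonads, and which cells came from which embryo was not given in the sources used here, so p-values measure the spread between these pools.

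At this stage the germ cells of the male gonad lie within forming cords of Sertoli cells. Those cells keep retinoic acid from them and so hold back meiosis, while Nodal signalling and the RNA-binding protein NANOS2 carry the male program. PGCs express genes of the pluripotency network until they enter mitotic arrest in G0/G1, a step tied to the retinoblastoma protein and to inhibitors of cyclin-dependent kinases.

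The E12.5 pools held 66 and 72 cells with 20701229 and 25629589 UMIs, and the E13.5 pools 93 and 94 cells with 27535797 and 22303106 UMIs. The median was 341191 UMIs and 8856 genes per cell at E12.5 and 268416 UMIs and 8043 genes at E13.5. Dazl, a germ cell RNA-binding protein, was read in every one of the 325 cells, and Ddx4, an RNA helicase of germ cells, in 65 of 66, 72 of 72, 93 of 93 and 93 of 94 cells of the pools in the order given. In 0, 1, 2 and 2 cells the markers of Sertoli, interstitial, endothelial, immune and blood cells summed to more than the germ cell markers. The blood marker sum, mostly globins, was 51.9 and 13.54 CPM (UMIs scaled to a total of 1000000 a pool) at E12.5 and 387 and 114 at E13.5, the interstitial sum 20.4 and 44.2 against 110 and 4.89, and the Sertoli sum 27.8 and 68.1 against 29.9 and 116. Of the endothelial markers, 4 of 4 tested were lower at E13.5 without overlap, with sums of 46.1, 37.5, 27.5 and 24.8 CPM. The median over cells of all such markers was 550 CPM in E13.5 replicate 1 and 102.85 to 134 CPM in the other pools, and its part in any result was not tested. No library held cells of both days, so day and library cannot be told apart. In summed pools, fewer cells that express a gene and less RNA per cell cannot be told apart either.

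The 2 pools of E13.5 were not alike. By the titles of the libraries, those of replicate 1 belong to another numbered series than those of replicate 2 and of both E12.5 pools, and what the numbering stands for was not given in the sources used here. Over 5634 genes with a mean of at least 32 CPM, the root mean square of the log2 difference was 0.305 between the E12.5 pools and 0.412 between the E13.5 pools. E13.5 replicate 1 stood at 0.521 and 0.528 from the E12.5 pools, and replicate 2 at 0.335 and 0.413. Replicate 2 was therefore closer to E12.5 replicate 1 than to its own replicate. Of the 14737 genes tested, 2547 (17.3%) were higher in both E13.5 pools than in both E12.5 pools and 3927 (26.6%) lower, and after scaling by the trimmed mean of M values (TMM) these shares were 22% and 21%. Counts without overlap in the gene lists below are to be read against these shares. Replicate 1 was the farther from the E12.5 mean in 69.3% of the genes that were higher and in 59.4% of those that were lower.

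With this spread, edgeR's quasi-likelihood test passed 1 gene at a false discovery rate of 0.05 (0.00679% of the genes tested), with 1633 genes (11.1%) at an unadjusted p under 0.05. DESeq2 passed 318 of the same genes (2.16%), 197 (1.34%) higher and 121 (0.821%) lower at E13.5. On simulated counts with the depth of these pools and a spread common to all genes, edgeR recovered 0 of 100 genes changed 2-fold and 4 of 100 changed 4-fold. The spread of single genes was not simulated, so these figures do not give the recovery of genes that vary less. A gene that did not pass is not shown to be unchanged. The count rose on leaving out any pool, to 105 without E12.5 replicate 1, 202 without E12.5 replicate 2, 193 without E13.5 replicate 1 and 1573 without E13.5 replicate 2. The remaining pool of that day was then taken to vary like the 2 of the other. Without E13.5 replicate 1, and so within 1 numbered series of libraries, the log2 difference was 6.89 for Egr4, 1.98 for Hesx1 and -1.52 for Tfcp2l1. Nanos2 had no UMI in either E12.5 pool, so no log2 difference is given for it. Of 53 named genes 49 kept their direction. In what follows the adjusted p is edgeR's unless DESeq2 is named, log2 differences are E13.5 minus E12.5 with their standard error (SE), and levels are CPM in the order E12.5 replicate 1, E12.5 replicate 2, E13.5 replicate 1 and E13.5 replicate 2.

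The gene that passed was Egr4, a zinc finger transcription factor of the immediate early EGR family. It stood at 0.0966 and 0.117 CPM at E12.5, which are 2 and 3 UMIs in all, and at 25.1 and 12.3 CPM at E13.5. It was near the limit of detection in both E12.5 pools and was read in 47 and 30 cells of the E13.5 pools. The log2 difference was 7.43 (SE 0.71, adjusted p = 0.0072, n = 2 pools a day). In the gate-negative cells of the same gonads it also went from 0.341 and 0 CPM to 5.89 and 69.3 CPM. The 13 genes known to respond to cell dissociation, immediate early genes among them, summed to 450 and 428 CPM at E12.5 and 344 and 731 CPM at E13.5. None of them passed edgeR's test, DESeq2 passed Jun and Fosb as higher, 5 were higher without overlap and 0 lower, with a median log2 difference of 1.08 against 0.02 over all genes tested. Jun stood at 5.07, 6.83, 18.9 and 21.7 CPM. Their part in the level of Egr4 was not tested.

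The promoters of the genes on which the account turns are given from the gene's strand, from 250 bases before to 50 bases after the start of transcription (RefSeq, GRCm38). They are Egr4 as the called gene, Hesx1 as the largest difference among well-read genes, Nanos2 as the marker of male fate, and Tcte3, whose copies are described further on. The RefSeq starts used for these windows can differ from the GENCODE gene coordinates printed further on, and the Hesx1 window lies inside the longer GENCODE gene. Capitals mark matches on either strand to TGACGT, the half-site of the cAMP response element, and to TGGGAA, the core bound by RBPJ of the Notch pathway.
Egr4, chr6:85513540-85513839, minus strand: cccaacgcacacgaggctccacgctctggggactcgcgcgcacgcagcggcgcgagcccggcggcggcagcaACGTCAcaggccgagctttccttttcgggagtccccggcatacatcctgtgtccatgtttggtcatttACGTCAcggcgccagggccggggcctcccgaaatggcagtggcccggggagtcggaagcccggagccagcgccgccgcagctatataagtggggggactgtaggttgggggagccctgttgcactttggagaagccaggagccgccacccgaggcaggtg
Hesx1, chr14:27000112-27000411, plus strand: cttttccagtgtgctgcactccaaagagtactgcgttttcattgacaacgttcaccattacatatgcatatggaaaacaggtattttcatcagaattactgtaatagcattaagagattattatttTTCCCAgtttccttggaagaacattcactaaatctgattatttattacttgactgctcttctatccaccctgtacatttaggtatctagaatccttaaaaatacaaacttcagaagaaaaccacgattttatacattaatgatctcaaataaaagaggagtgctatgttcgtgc
Nanos2, chr7:18987274-18987573, plus strand: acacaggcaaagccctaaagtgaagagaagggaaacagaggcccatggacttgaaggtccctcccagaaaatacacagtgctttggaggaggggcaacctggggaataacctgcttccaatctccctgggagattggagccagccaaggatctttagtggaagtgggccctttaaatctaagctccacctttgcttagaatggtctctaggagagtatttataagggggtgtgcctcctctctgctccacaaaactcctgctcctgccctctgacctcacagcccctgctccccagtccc
Tcte3, chr17:15041510-15041809, minus strand: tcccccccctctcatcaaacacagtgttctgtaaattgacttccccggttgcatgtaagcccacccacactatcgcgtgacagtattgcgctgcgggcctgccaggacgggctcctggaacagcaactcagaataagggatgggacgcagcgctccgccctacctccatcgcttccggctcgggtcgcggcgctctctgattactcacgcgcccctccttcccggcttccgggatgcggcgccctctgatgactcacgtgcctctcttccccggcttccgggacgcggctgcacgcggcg
The Egr4 window held 2 matches to TGACGT, which 7.51% of 32851 promoters hold at least once, and the Hesx1 window 1 match to TGGGAA, which 25.6% hold. The windows of Nanos2 and Tcte3 held neither. The CArG box, the binding site of serum response factor, was in 1.63% of all promoters and in none of these 4 windows.

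Nanos2 (chr7:18987400-18988962, plus strand), an RNA-binding protein that directs the male fate and represses meiosis, had no UMI in either E12.5 pool and 52.3 and 3.00 CPM at E13.5. Replicate 1 lay far above replicate 2. Against the limit that 3 counts over the E12.5 pools together set, the mean at E13.5 was at least 427-fold higher (adjusted p = 0.116, DESeq2 adjusted p = 0.0195). It was read in 71 of 93 cells of replicate 1 and 10 of 94 of replicate 2, and in 0 of 66 and 0 of 72 cells at E12.5, which allows shares of up to 4.55% and 4.17%. When cells were thinned to 50000 UMIs, the shares were 51.6% and 3.49% at E13.5. In gate-negative cells they were 10.8% and 4.55% after thinning, so the share in replicate 2 was not above that outside the gate. The gap between the replicates was there in each part of the gonad, with 38.3, 57.1 and 59.1 CPM proximally, centrally and distally in replicate 1 and 5.33, 1.67 and 1.89 CPM in replicate 2. The proximal cells of replicate 1 were in another library than its central and distal cells. At E11.5 the gene was at 0 in both pools and at E14.5 at 68.2 and 85.0 CPM. The E11.5 pool of replicate 1 also held cells named BV rather than BVSC. Of the 71 cells of replicate 1 with a Nanos2 UMI, 71 also had one of Nanog, 68 of Sox2 and 66 of Mki67. Among all 93 cells of that pool, 92 had a UMI of Nanog, 85 of Sox2 and 88 of Mki67. Such overlap is therefore found whatever the state of Nanos2, and no mixed state is read from it.

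Taf7l, Ret, Mael and Piwil4 had the same order, with replicate 1 above replicate 2. Taf7l and Ret are not members of the male fate and piRNA lists counted below. In those lists replicate 1 was the farther from the E12.5 mean in 7 of 11 and 16 of 24 tested genes. Taf7l, a germ cell TFIID subunit, stood at 0.676, 0.858, 31.8 and 4.48 CPM (log2 difference 4.58, SE 0.84, adjusted p = 0.131, DESeq2 adjusted p = 3.7e-06). Ret, the receptor tyrosine kinase for GDNF, stood at 0, 0.234, 15.8 and 1.93 CPM (DESeq2 adjusted p = 5.6e-05). Mael, a factor of piRNA silencing, stood at 131, 85.6, 393 and 127 CPM, so replicate 2 lay within the range of E12.5. Piwil4, the PIWI protein of fetal transposon silencing, stood at 4.78, 6.87, 18.01 and 5.56 CPM, again with replicate 2 inside that range. Dnmt3l, the cofactor of de novo methylation, had no UMI in any of the 4 pools. Of 11 tested genes of male fate, none passed edgeR's test and 1, Nanos2, passed DESeq2's, with 3 higher and 2 lower without overlap (4 and 1 after TMM scaling) and a median of 0.32. Of 24 piRNA genes none passed either test, and 4 were higher and 3 lower without overlap, which became 7 and 1 after TMM scaling.

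**Figure D1:**
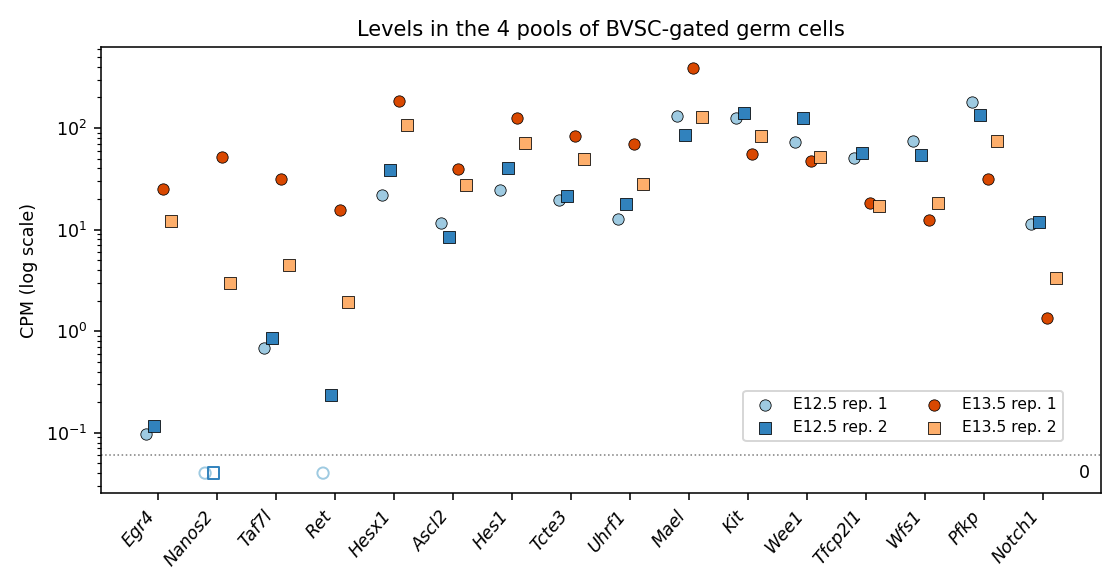
Level of 16 genes in CPM on a log scale, 1 point for each pool, circles for replicate 1 and squares for replicate 2, with open symbols under the dotted line for a level of 0. Nanos2 went from 0 in both E12.5 pools to 52.3 and 3.00 CPM, and the E13.5 pools of Egr4, Hesx1 and Hes1 lay above those of E12.5 while those of Kit, Wee1, Tfcp2l1, Wfs1, Pfkp and Notch1 lay below.

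The genes that the study names for transitional PGCs, a state placed by it between mitotic and arrested PGCs, were chosen on these same cells, so their count is not independent evidence. Of its 6 genes none passed edgeR's test, 5 passed DESeq2's as higher, and Wee1 did not pass. Hesx1 (chr14:26994416-27002329, plus strand), a homeodomain repressor best known from the forebrain and pituitary, stood at 21.8, 38.2, 185 and 108 CPM (log2 difference 2.36, SE 0.30, adjusted p = 0.070, DESeq2 adjusted p = 3.8e-11). Both E13.5 pools lay well above both E12.5 pools, and the thinned share of cells with a UMI went from 29.2% and 58.0% to 92.3% and 76.7%. Hes1, the transcriptional repressor induced by Notch, stood at 24.4, 40.8, 126 and 71.0 CPM (log2 difference 1.66, SE 0.31, adjusted p = 0.131). Ascl2, a basic helix-loop-helix factor, stood at 11.6, 8.47, 39.8 and 27.3 CPM (log2 difference 1.80, SE 0.36, adjusted p = 0.180). Tgif1, a corepressor of SMAD signalling, and Sp5, a target of Wnt, differed by 1.44 (SE 0.24) and 1.79 (SE 0.44). Wee1, the kinase that holds CDK1 inactive, stood at 72.8, 127, 47.7 and 52.3 CPM (log2 difference -0.90, SE 0.27, adjusted p = 0.278). In all 6 genes replicate 1 was the farther from E12.5. At E11.5, where replicate 1 also held cells named BV rather than BVSC, Hesx1 was at 0.641 and 0.969 CPM and Hes1 at 17.0 and 14.54 CPM. At E14.5 Hesx1 was at 227 and 231 CPM and Hes1 at 165 and 166 CPM.

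**Figure D2:**
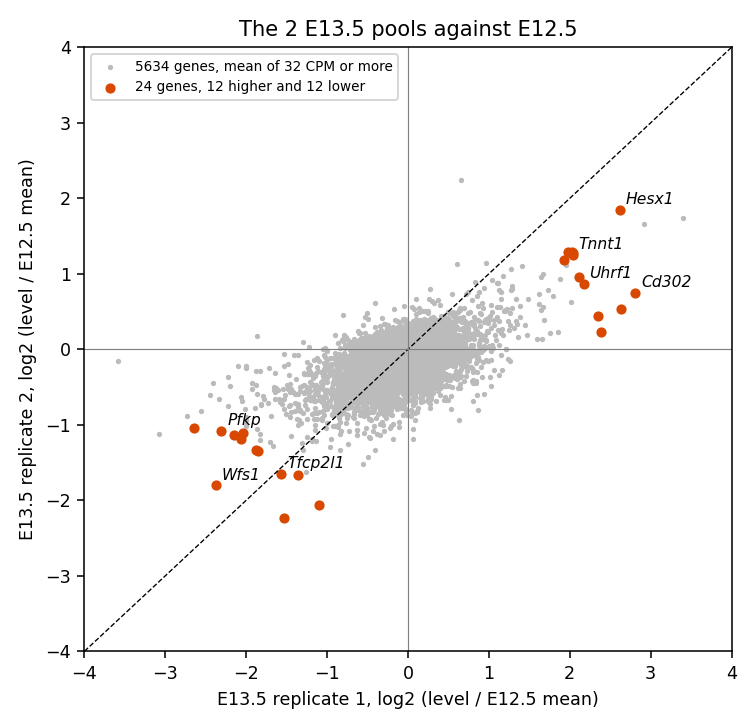
For each gene with a mean of at least 32 CPM, the log2 of its level over the E12.5 mean in E13.5 replicate 1 (horizontal) and replicate 2 (vertical), with the dashed line marking equal differences. The 12 genes named as highest and the 12 as lowest are in orange, and all 12 on the right lie under the line because replicate 1 stood farther from E12.5.

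Since the test passed 1 gene, the genes to describe further were taken, after their values had been seen, from those past DESeq2's threshold with a mean of at least 32 CPM and no overlap between the days. These were 57 genes higher at E13.5 and 52 lower. Replicate 1 was the farther in 55 of the 57 and in 37 of the 52. After Hesx1, the 11 largest differences upward were in Cd302, Gmpr, Tnnt1, Tcte3, Gm3448, Gm3417, Tex19.2, Uhrf1, AC149090.1, Dnaic1 and Mgst2, with log2 differences of 2.16 to 1.67 and adjusted p of 0.116 to 0.276. Tnnt1, the slow skeletal troponin T, stood at 31.5, 65.2, 199 and 115 CPM. Uhrf1, which brings DNMT1 to hemimethylated DNA, stood at 12.8, 17.99, 69.5 and 28.2 CPM. Tex19.2, of a family that restrains retrotransposons in germ cells, stood at 16.6, 14.2, 78.6 and 21.0 CPM, with replicate 2 little above E12.5. Cd302 and Gmpr had the same pattern, at 90.0 and 88.3 CPM in replicate 1 and 21.6 and 20.5 CPM in replicate 2.

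Among these 12 names, 3 stand for copies of 1 gene. Tcte3, Gm3448 and Gm3417 lie close together on chromosome 17, and their promoter windows were identical in all 300 bases. They stood at 50.04, 52.3 and 47.5 CPM in E13.5 replicate 2 and at 83.7, 89.0 and 76.4 CPM in replicate 1, against 18.4 to 22.9 CPM at E12.5. How the counting shared reads between the copies was not tested, so the levels of the single copies are uncertain.

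The 12 largest differences downward were in Wfs1, Gm37696, Tfcp2l1, Hk1, Gm3143, Klhl13, Pfkp, Adam19, Folr1, Lncenc1, Zfp985 and Lgals9, with log2 differences of -1.97 to -1.40 and adjusted p of 0.116 to 0.270. Wfs1, a membrane protein of the endoplasmic reticulum, stood at 74.7, 54.2, 12.46 and 18.5 CPM. Tfcp2l1, a factor of naive pluripotency, stood at 50.5, 57.0, 18.1 and 17.2 CPM, with the replicates of each day close together (log2 difference -1.53, SE 0.28, adjusted p = 0.131, DESeq2 adjusted p = 0.00011). Lncenc1, a noncoding RNA of embryonic stem cells, stood at 50.2, 49.0, 23.1 and 11.8 CPM. Hk1 and Pfkp are enzymes of early glycolysis, with Hk1 at 65.0, 76.9, 11.4 and 34.5 CPM and Pfkp at 179, 133, 31.5 and 73.8 CPM. Of the 22 glycolysis genes tested these were the 2 past DESeq2's threshold, while 8 members, Tpi1 and Gapdh among them, were higher without overlap and 5 lower (11 and 4 after TMM scaling).

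In the pluripotency network 11 of 22 tested genes were lower at E13.5 without overlap and 2 higher, against 26.6% and 17.3% of all genes. The sum of the list was 5246 and 5017 CPM at E12.5 and 3912 and 4988 CPM at E13.5, so replicate 2 was close to E12.5. None passed edgeR's test, and DESeq2 passed Tfcp2l1 and Esrrb as lower and Otx2, a factor of the primed state, as higher. Esrrb, an orphan nuclear receptor, stood at 53.3, 74.5, 24.6 and 33.7 CPM, and Otx2 at 11.8, 14.6, 32.3 and 29.5 CPM. The core genes passed neither test. Pou5f1 stood at 213, 263, 197 and 235 CPM and Nanog at 190, 159, 105 and 159 CPM, with the days overlapping in both. Sox2 stood at 124, 156, 88.6 and 108 CPM, lower in both E13.5 pools. Their log2 differences of -0.05, -0.31 and -0.42 had SEs of 0.20, 0.25 and 0.22. Over the list the median was -0.29.

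In the Nodal pathway 3 of 14 tested genes were higher and 4 lower without overlap, near the shares over all genes, and none passed either test. Nodal, the ligand, stood at 53.3, 74.2, 56.1 and 70.7 CPM, the same range on both days. Its coreceptor Tdgf1 stood at 65.2, 58.5, 21.8 and 34.03 CPM (log2 difference -1.06, SE 0.31, adjusted p = 0.263), lower in both E13.5 pools. The extracellular inhibitor Lefty1 stood at 215, 245, 246 and 366 CPM, without overlap and with a log2 difference of 0.51. Lefty2 overlapped. The median over the list was 0.06.

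The list of FGF receptors, targets and feedback inhibitors had 10 of 15 tested genes lower without overlap and 0 higher, against 26.6% and 17.3% of all genes. Its sums were 710 and 855 CPM at E12.5 and 479 and 617 CPM at E13.5. After TMM scaling 9 were lower without overlap and 0 higher, against 21% and 22% of all genes. None passed either test. Spry4, a feedback inhibitor of the pathway, stood at 21.2, 24.3, 3.63 and 10.7 CPM, Dusp6, a phosphatase of ERK, at 81.7, 81.6, 42.8 and 55.1 CPM, and the ETS factor Etv5 at 219, 245, 149 and 189 CPM. All 3 were lowest in replicate 1 of E13.5. Kit, the receptor for stem cell factor and a marker of PGCs, stood at 125, 142, 54.9 and 83.6 CPM (log2 difference -0.85, SE 0.26, adjusted p = 0.285, DESeq2 adjusted p = 0.069). At E14.5 it was at 37.1 and 35.2 CPM.

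In the Notch pathway 5 of 21 tested genes were higher and 5 lower without overlap, and DESeq2 passed Hes1 and Dll3 as higher and Notch1 as lower. Notch1, a receptor, stood at 11.3, 11.9, 1.34 and 3.36 CPM (log2 difference -2.19, SE 0.63, adjusted p = 0.262). Dll3, a ligand-like member that acts within the cell, stood at 19.6, 29.8, 59.6 and 51.7 CPM (log2 difference 1.25, SE 0.28, adjusted p = 0.189). Of 24 BMP and Wnt genes, 7 were higher and 5 lower without overlap, and DESeq2 passed Bmp4, Id4 and Sp5. Bmp4, a ligand, stood at 4.40, 3.08, 26.4 and 10.4 CPM, and Id4, an inhibitor of helix-loop-helix factors that BMP induces, at 9.42, 9.29, 42.1 and 18.2 CPM.

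Of 14 inhibitors of cyclin-dependent kinases and genes of the retinoblastoma family, 4 were higher at E13.5 and 1 lower without overlap, and the sum of the list was 489, 426, 423 and 443 CPM. The 3 inhibitors described here were read at low levels and had both E13.5 pools above both E12.5 pools. Cdkn1b (p27) stood at 1.93, 5.50, 15.9 and 7.58 CPM, Cdkn2a at 2.13, 3.43, 13.4 and 10.8 CPM and Cdkn2b (p15) at 3.91, 4.02, 13.001 and 9.95 CPM. None of the 3 passed edgeR's test (adjusted p = 0.347, 0.209 and 0.307), and Cdkn2a passed DESeq2's (adjusted p = 0.013). After thinning, 10.8% and 11.6% of E12.5 cells and 25.3% and 22.1% of E13.5 cells had a Cdkn2b UMI, against 0% and 2.27% of the gate-negative E13.5 cells. For Cdkn1b the thinned shares of 31.9% and 19.8% at E13.5 did not exceed the highest gate-negative share of 36.4%. Rb1 overlapped, at 10.0, 17.3, 18.2 and 11.7 CPM.

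Genes of the cycle itself differed less. Mki67, the proliferation marker, stood at 196, 221, 159 and 167 CPM (log2 difference -0.27, SE 0.18, adjusted p = 0.638). At full depth, 100% and 98.6% of E12.5 cells and 94.6% and 97.9% of E13.5 cells had an Mki67 UMI. After thinning the shares were 98.5% and 100% at E12.5 and 79.1% and 95.3% at E13.5, lower in both E13.5 pools. Ccne1, the cyclin of entry into S phase, stood at 145, 114, 68.9 and 102 CPM. Of 53 G2/M genes 25 were lower and 3 higher without overlap, which became 15 and 6 after TMM scaling, with a median of -0.08. Of 43 G1/S genes 11 were lower and 4 higher, turning to 4 lower and 7 higher after TMM scaling, so no direction is given for them. The sums of both lists were lowest in E13.5 replicate 1, while replicate 2 stood in the range of E12.5 for G1/S and at 13233 CPM against 13066 and 12984 CPM for G2/M.

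Genes of meiotic entry and prophase had 8 of 22 tested members higher without overlap and 0 lower, against 17.3% and 26.6% of all genes. After TMM scaling 9 were higher and 0 lower, against 22% and 21%. The median was 0.38, and none passed either test. Stra8, the gene induced by retinoic acid at meiotic entry, stood at 1.64, 0.975, 10.4 and 1.70 CPM, and 1 cell gave 30.7% of its UMIs in E13.5 replicate 1 and 47.4% in replicate 2. Sycp1, of the synaptonemal complex, stood at 65.0, 57.7, 170 and 70.2 CPM (log2 difference 1.02, SE 0.32, adjusted p = 0.307) and Smc1b, a meiotic cohesin, at 268, 289, 368 and 337 CPM. Both were highest in replicate 1. Among 20 germline genes whose promoters are known to be silenced by methylation, Taf7l, Sycp1 and Mael among them, 7 were higher and 1 lower without overlap, against 17.3% and 26.6% of all genes. After TMM scaling 10 were higher and 1 lower, and DESeq2 passed 1 as higher and 1 as lower. The list summed to 2918, 2631, 3774 and 2901 CPM, so replicate 2 of E13.5 lay within the range of E12.5. Dazl, another member of the list, stood at 608, 594, 825 and 769 CPM (log2 difference 0.49, SE 0.16, adjusted p = 0.314). Dppa3, the gene behind the Stella reporter of the sort, stood at 950, 851, 1160 and 1175 CPM, and Prdm1, behind the other reporter, at 56.1, 82.2, 98.9 and 63.7 CPM.

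Of 84 ribosomal protein genes tested, 75 were higher in both E13.5 pools and 1 lower, and 74 and 1 after TMM scaling. Their sum was 66212 and 60598 CPM at E12.5 and 77543 and 77668 CPM at E13.5, with both replicates of E13.5 alike, and the median log2 difference was 0.38 against 0.02 over all genes tested. None passed edgeR's test, and DESeq2 passed 3 as higher and 1, the retrogene Rpl10l, as lower. The 13 genes of the mitochondrial genome were higher without overlap in 10 and lower in 0 (12 and 0 after TMM scaling), and those of oxidative phosphorylation in 48 and 2 of 89. Proteasome subunits were higher in 18 of 36 and lower in 1, with a median of 0.22. In gate-negative cells the ribosomal protein sum was 75787 and 74893 CPM at E12.5 and 90193 and 48029 CPM at E13.5, where the E13.5 pools lay on either side.

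**Figure D3:**
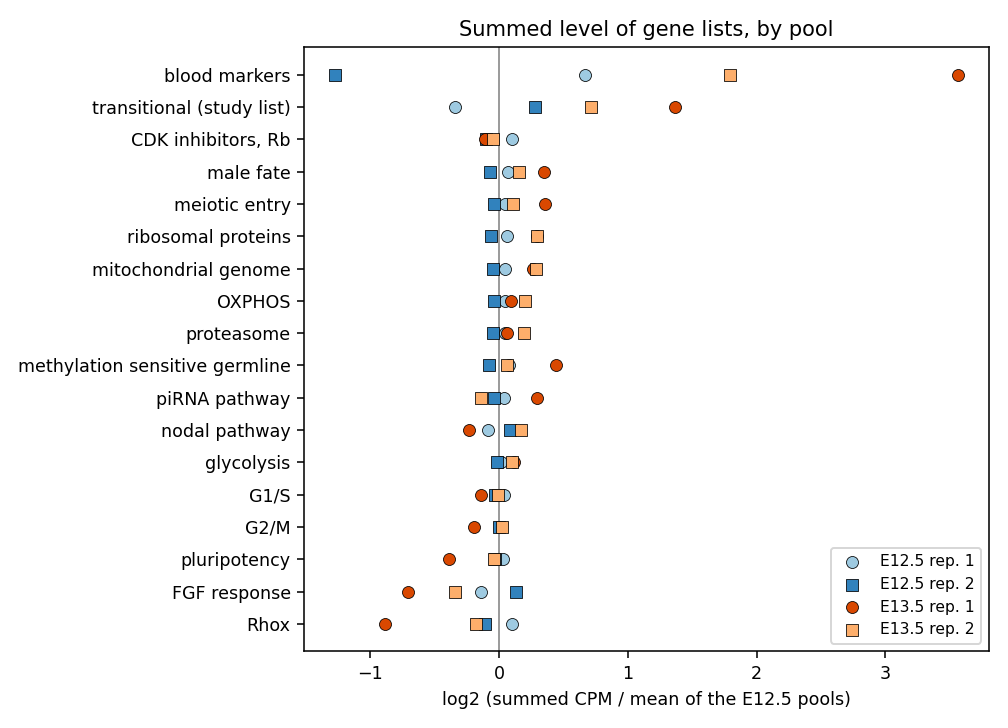
Summed level of 18 gene lists in each pool, as log2 over the mean of the 2 E12.5 pools, circles for replicate 1 and squares for replicate 2. Ribosomal proteins and the mitochondrial genome had both E13.5 pools together on the right, while for the pluripotency and Rhox lists replicate 1 of E13.5 lay to the left and replicate 2 near 0.

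X-linked Rhox homeobox genes, which are close copies of one another and whose single levels are uncertain, summed to 1930 and 1663 CPM at E12.5 and 969 and 1581 CPM at E13.5. Of 9 tested, 4 were lower without overlap and 0 higher, and after TMM scaling 3 and 1. Of 26 imprinted genes 7 were lower and 3 higher, which became 6 and 6 after TMM scaling. DESeq2 passed Mest, expressed from the paternal allele, as higher (7.68, 6.20, 29.8 and 15.5 CPM) and Slc38a4, an amino acid transporter, as lower (88.3, 74.0, 36.9 and 35.0 CPM). Apoptosis genes had 2 of 23 higher and 5 lower without overlap, and genes of DNA methylation 4 and 6 of 18, Uhrf1 among the former. Genes of retinoic acid signalling had 0 higher and 3 lower of 15, but 3 higher and 2 lower after TMM scaling, so no direction is given for them.

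**Figure D4:**
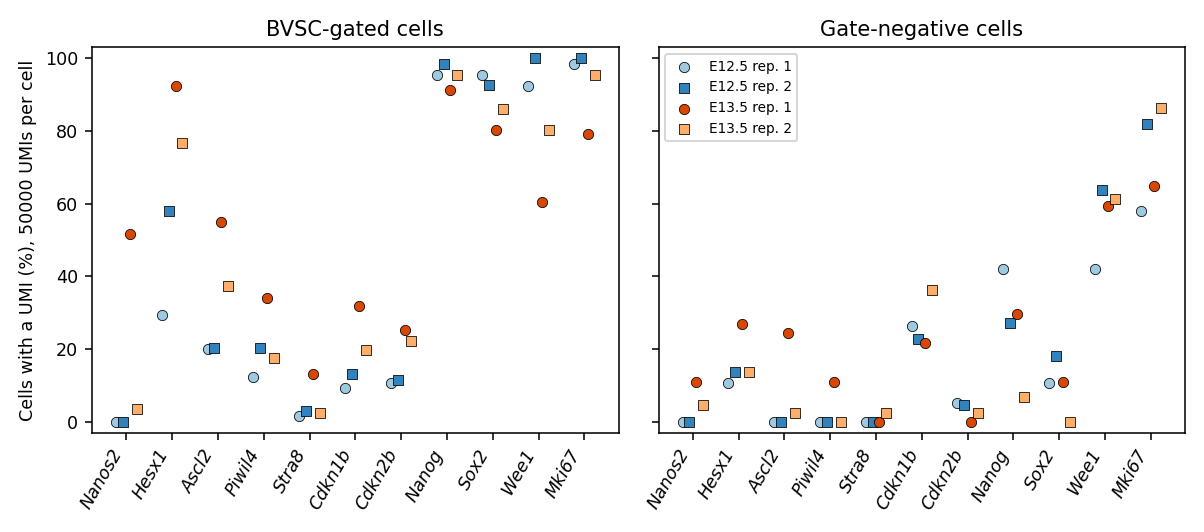
Share of cells with at least 1 UMI of a gene after each cell was thinned to 50000 UMIs, for gated cells (left) and gate-negative cells (right), 1 point for each pool. Hesx1 and Ascl2 were read in a larger share of gated cells in both E13.5 pools, Nanos2 in 51.6% and 3.49%, and the genes of pluripotency and proliferation in most cells on both days.

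With 2 pools a day an exact permutation test of a single share or list sum cannot go below p = 0.333 (two-sided), so these are given without a test. For Ascl2 the thinned shares were 20.0% and 20.3% at E12.5 and 54.9% and 37.2% at E13.5. They were 24.3% and 2.27% in gate-negative cells of E13.5. Nanog was read in 95.4% and 98.6% of E12.5 cells and 91.2% and 95.3% of E13.5 cells, and in 6.82% to 42.1% of gate-negative cells. For Wee1 the shares were 92.3% and 100% against 60.4% and 80.2%.

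Whether the proximal, central and distal parts of the E13.5 gonad differed was tested with the replicate as a block, over 13326 genes. In replicate 1 the proximal cells were in another library than the central and distal cells. There a difference of the proximal part cannot be told apart from one of library, and the block does not remove this. No gene passed edgeR's test between distal and proximal, central and proximal, or distal and central cells (0% each), with 462, 672 and 616 genes at an unadjusted p under 0.05, and DESeq2 passed 2 (0.015%), 4 (0.03%) and 1 (0.0075%). The 2 of distal against proximal cells were Defb19 and Cyp11a1, which Sertoli and Leydig cells express. The 4 were Zmynd19, Bri3, Ptov1 and Jund, higher centrally than proximally, and the last was Cnot11, lower distally than centrally. Stra8 stood at 28.3, 1.95 and 4.54 CPM proximally, centrally and distally in replicate 1 and at 3.51, 0.972 and 0.540 CPM in replicate 2, highest proximally in both (distal against proximal log2 difference -2.63, SE 0.85, adjusted p = 1.00). A UMI of it was read in 13, 8 and 10 of 31 cells in replicate 1, but in 4 of 31, 5 of 32 and 4 of 31 cells in replicate 2, where the share was not highest proximally and 1 cell gave 47.4% of all its UMIs. Hesx1 stood at 193, 175 and 191 CPM in replicate 1 and 105, 95.8 and 123 CPM in replicate 2, so the replicates differed more than the parts.

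**Figure D5:**
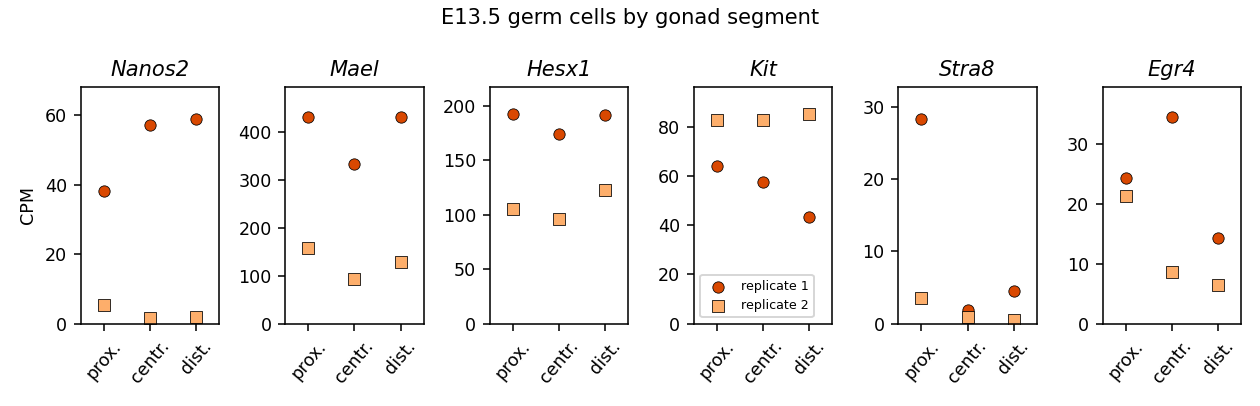
Level of 6 genes in CPM in the proximal, central and distal cells of E13.5, circles for replicate 1 and squares for replicate 2. Nanos2, Mael and Hesx1 were higher and Kit lower in replicate 1 in every part, and Stra8 was highest in the proximal cells of both replicates, with 47.4% of its UMIs in replicate 2 from 1 cell.

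The gate-negative cells of the same gonads, 24 and 24 at E12.5 and 47 and 48 at E13.5, are a mixture outside the germ cell gate. edgeR passed 0 of 12711 genes in them (0%), with 780 (6.14%) at an unadjusted p under 0.05. Their germ cell marker sum was 264, 372, 675 and 165 CPM, against 3131 to 3841 CPM in the gated pools, so germ cell transcripts were not absent from them. Hes1 was higher there than in gated cells at 230, 333, 489 and 426 CPM, without overlap between the days, as in the gated cells. Hesx1 was at 1.37, 1.74, 24.7 and 3.91 CPM.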

How the data were processed

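The libraries were a modified STRT-seq, in which a barcode for the cell and a UMI are added at reverse transcription and the 3′ end is read. According to the study's methods the authors used UMI-tools for barcodes and UMIs, seqtk for trimming, STAR for alignment (mm10) and featureCounts for assignment to genes. The deposited table holds UMI counts of 31053 genes without normalization. Day, genotype, gate, part of the gonad and replicate were read from the deposited cell names, since the library labels used here do not give them, and all 856 cells read had the total listed for them.

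Counts were summed per day and replicate and tested with edgeR 4.0.16 (filterByExpr, TMM, quasi-likelihood, Benjamini-Hochberg) in R 4.3.3, and with DESeq2 1.42.0. The SE is the log2 difference divided by the square root of F. No doublet caller was run, since cells were picked singly. Shares used cells thinned to 50000 UMIs, intervals and limits cover counting error only, and coordinates of genes are from GENCODE M21 on GRCm38. edgeR's recovery was tested on simulated data with a spread common to all genes, 100 genes at each of 2 fold sizes.

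Genes to be named were to be the 12 largest differences each way past edgeR's threshold with a mean of at least 32 CPM and no overlap, members of 34 gene lists past that threshold, and 30 genes known for this step. As 1 gene passed, the same rule was applied to DESeq2's calls after the values were seen. Members and lists were chosen with earlier results of these data known.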

Additional observations from a re-analysis of the deposited data

Results flagged for a closer look

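Of 53 named genes, 6 lay without overlap in opposite directions in the gated and the gate-negative cells. The difference between the 2 kinds of cell was not tested, and neither kind passed edgeR's test for any of them. Ccnd1, a cyclin of G1, had a log2 difference of 1.315 in gated cells and -1.86 in gate-negative cells, where it stood at 194, 40.8, 33.3 and 37.2 CPM. Notch1 had -2.195 in gated cells and 2.21 outside, at 0.341, 9.83, 19.1 and 33.1 CPM. Tfcp2l1 had -1.526 against 1.57, Folr1, a folate receptor, -1.458 against 1.05, Wee1 -0.905 against 0.81, and Ccne1 -0.516 against 0.34. The gate-negative pools hold 24 to 48 cells of several types, and their makeup on the 2 days was not matched.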

How the results depend on the processing

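The number of genes that passed in germ cells depended on the settings. It was 1 with RLE size factors or without a filter on cells, 2 (Egr4 and Hesx1) without cells that read as other types, 16 with the spread shared over E11.5 to E14.5, 17 with thinned cells, 43 with a mean of at least 10 CPM, 318 with DESeq2 and 481 without a filter on low counts. With E13.5 cells of 1 part alone it was 2 (Egr4 and Gm32585) for proximal and 0 for central and for distal cells, where 1072 and 1701 genes had an unadjusted p under 0.05 and Egr4 kept a log2 difference of 7.55 and 6.55. Leaving out 1 pool gave 105 to 1573 genes in germ cells and 0 to 320 in gate-negative cells. The replicate numbers did not pair the pools (correlation of deviations -0.021 across genes), and a replicate block gave 344 genes in germ cells and 50 in gate-negative cells. Between parts of the gonad, no filter on low counts gave 20, 89 and 32 genes and DESeq2 2, 4 and 1. The cause of these differences was not tested. In the setting with the spread shared over E11.5 to E14.5, replicate 1 of E11.5 also held cells named BV rather than BVSC. Of 53 named genes, 6 turned direction under some setting, all with small differences. When 1 pool was left out Nodal ranged from -0.20 to 0.29, Lefty2 from -0.59 to 0.28, Pou5f1 from -0.28 to 0.11, Rb1 from -0.11 to 0.60, Ccnd2 from -0.34 to 0.21 and Ccnd3 from -0.89 to 0.048. With E13.5 cells of 1 part Nodal turned to -0.25 (central), Pou5f1 to 0.13 and Rb1 to -0.015 (proximal) and Ccnd2 to 0.30 (distal), and with thinned cells Ccnd2 turned to 0.11. Of 30 shares at another thinning 5 moved by more than the spread of the replicates, and of 34 list sums as means over cells 9 did.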

Other observations

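A few transcripts that belong to no list of the germ line were highest, among the gated pools, in E13.5 replicate 1. Prss29, a serine protease best known from the uterus, stood at 1.304, 0.819, 42.7 and 3.32 CPM and was read in 57 of 93 cells of replicate 1 and 14 of 94 of replicate 2. Ighm, the constant region of immunoglobulin M, stood at 0.531, 0.858, 42.6 and 1.52 CPM and was read in 67 cells of replicate 1 and 5 of replicate 2, with the top cell giving 7.08% of the UMIs in replicate 1. In gate-negative cells of that replicate they were at 3.18 and 5.57 CPM. The adult globins Hbb-bs and Hbb-bt, near-identical copies whose single levels are uncertain, stood at 5.80, 3.55, 86.7 and 21.0 CPM and at 0.918, 0.975, 53.1 and 6.10 CPM, and Hbb-bs was read in 72 of 93 and 45 of 94 cells of the E13.5 pools. In gate-negative cells of E13.5 Hbb-bs was at 409 and 56.6 CPM. These genes were chosen after their values were seen.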
